A study of Mus musculus with 9 samples.

Results

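The whole astrocyte translatome was measured in the 3 libraries labelled Whole astrocyte translatome, out of 9 libraries in the series. These 3 libraries were chosen by their label alone, and levels were described across 22092 genes within them, without any comparison with the other libraries. The study asked which mRNAs are bound to ribosomes in the perivascular endfeet of astrocytes, with whole astrocytes as the reference, and combined translating ribosome affinity purification (TRAP) with RNA sequencing. Each library came from 1 whole brain of a mouse aged 2 months, of the strain given as Aldh1L1 JD130 and the genotype tg:Aldh1L1-L10aGFP, with the choroid plexus removed before extraction. All 3 mice carried the transgene, so that no library here shows what the purification retains from a brain without tagged ribosomes. The transgene is a bacterial artificial chromosome in which the Aldh1l1 promoter drives the ribosomal protein L10a fused to GFP, and the tag therefore reports on cells in which this promoter is active.

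In TRAP, ribosomes that carry GFP are pulled down with an antibody and the mRNAs attached to them are sequenced, which gives a view of the mRNAs engaged by the translation machinery of one cell type. Astrocytes are the glial cells that clear glutamate and potassium from the extracellular space, convert glutamate into glutamine, store glycogen, supply lipids to other cells and contact the blood vessels of the brain. Their mRNAs for these tasks, the mRNAs of the energy metabolism behind them and the limits of the measurement were examined in turn.

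The 3 libraries held 35984144, 36040873 and 43521208 gene counts. A gene was taken as detected with at least 3 counts in each library, which 14871 genes (67.3%) met. Levels of different genes are given as TPM, in which counts are divided by the length of the transcript and then scaled to the same total in each library (1000000), as mean ± SD of 3 libraries. Smaller differences between the libraries, such as the 335, 237 and 266 TPM of Aqp4, are given with the genes below. Among the marker lists of non-astrocytic cells, 1 differed most between the libraries. The summed level of 15 choroid plexus markers was 184 TPM in library 1, 3695 TPM in library 2 and 3019 TPM in library 3, although the other marker lists of non-astrocytic cells moved far less.

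The defining markers of astrocytes were high in all 3 libraries. Ndrg2 (N-myc downstream regulated gene, an astrocyte marker) stood at 17366, 18584 and 17199.5 TPM and was the most abundant mRNA of all. Glul, the glutamine synthetase that converts glutamate into glutamine, stood at 14068.5, 12059 and 10876 TPM. Both lay among the 4 genes with a mean above 10000 TPM. Slc1a2, the main glutamate transporter of astrocytes, had 2186, 1681 and 2019 TPM. Gja1, the gap junction protein connexin 43, had 468, 389 and 444 TPM. Aldh1l1, the folate enzyme whose promoter drives the transgene, had 165, 179 and 181 TPM. The order Ndrg2, Glul, Slc1a2, Gja1, Aldh1l1 was the same in each library and the values of neighbouring genes did not overlap. Aldh1l1 came 1148th by mean TPM and thus far below the other 4 genes, yet well above the median of 16.1 TPM over detected genes.

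All 32 genes of a broader list of astrocyte markers were detected, with a median of 522 TPM and 27 members at or above 100 TPM. The glycolytic enzyme Aldoc led them at 11036 ± 39.98 TPM, before the protease inhibitor Cst3 at 5344 ± 1150 TPM, the calcium-binding protein S100b at 3767 ± 19.8 TPM and the lipid carrier Apoe at 2057 ± 587 TPM. The intermediate filament Gfap had 1299, 1391 and 1407 TPM, a range that overlapped those of the secreted chaperone Clu (1313 to 1697 TPM) and of the matrix protein Sparcl1 (1109 to 1439.5 TPM). The water channel Aqp4, a marker of the perivascular membrane, had 335, 237 and 266 TPM. The lowest members were Slc7a10, a neutral amino acid exchanger, at 36.7 ± 4.86 TPM, and the metallothionein Mt3 at 50.1 ± 1.91 TPM.

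**Figure D1:**
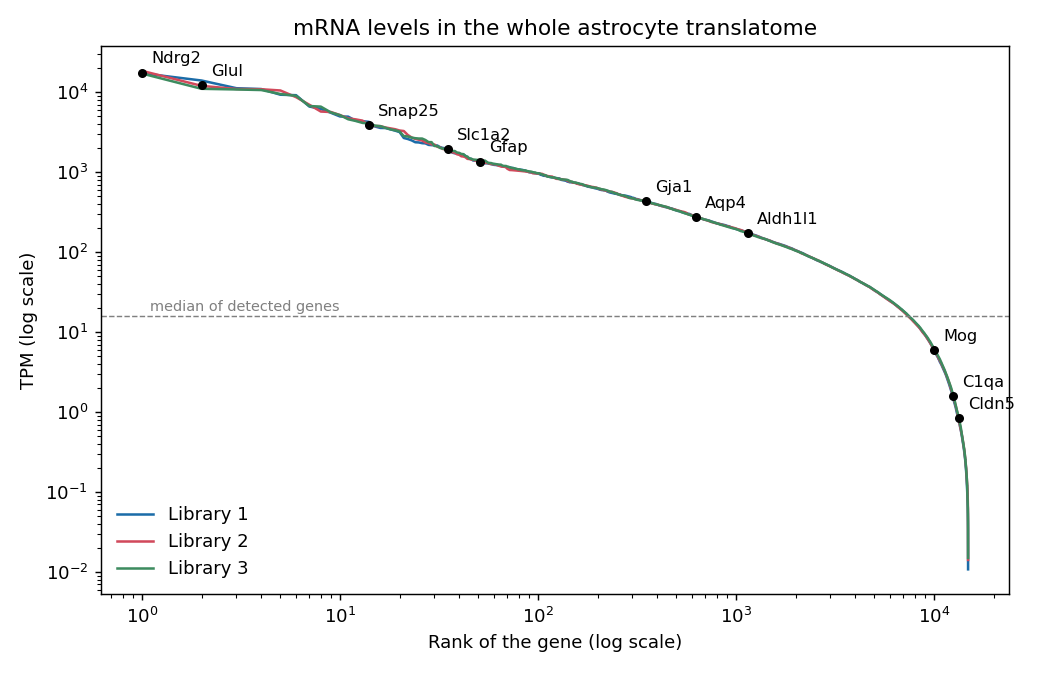
Level of each detected gene in TPM (log scale) against its rank from the most to the least abundant (log scale), 1 line per library, with the means of 11 named genes as black points and the median of detected genes as a dashed line. The lines of the 3 libraries lie on top of each other, Ndrg2 and Glul stand at the upper left, and Mog, C1qa and Cldn5, markers of oligodendrocytes, microglia and endothelial cells, stand below the median. Mog is a low member of the oligodendrocyte list, whose own median of 29.99 TPM lies above the dashed line.

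Translation-engaged mRNA was concentrated in few genes. The 10 most abundant genes held 9.57%, 9.55% and 9.26% of all TPM in the 3 libraries, the first 30 held 15.9 ± 0.181% and the first 100 held 24.9 ± 0.0492%. Between 632 and 638 genes made up the upper 50% of all TPM in each library. The level of detected genes spanned 6.12 orders of magnitude, with 10% of genes below 0.801 TPM and 10% above 138 TPM. At or above 1 TPM were 13123 genes, at or above 10 TPM 8813, at or above 100 TPM 2106 and at or above 1000 TPM 96.

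All 30 genes with the highest mean TPM stood among the first 50 of every library, and 23 of them had a coefficient of variation under 10%. The spread was smallest for Aldoc (0.362%) and largest for the prostaglandin D synthase Ptgds (30.4%). After Ndrg2, Glul and Aldoc came Fam107a, an actin-associated protein, with 11270, 10938 and 10695 TPM. The values of Glul, Aldoc and Fam107a overlapped, so their order among themselves could not be read from 3 libraries. Dbi, the acyl-CoA binding protein, had 9347, 10561 and 9540 TPM, and lay below Fam107a in each library.

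The metallothioneins, small proteins that bind zinc and copper, gave a sharp contrast within a family. Mt2 had 9222, 8711 and 9044 TPM and Mt1 had 6655, 7001 and 6749 TPM. The level of Mt3 was 51.1, 51.3 and 47.9 TPM. No 50-base window of Mt1, Mt2 or Mt3 matched another annotated gene.

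**Figure D2:**
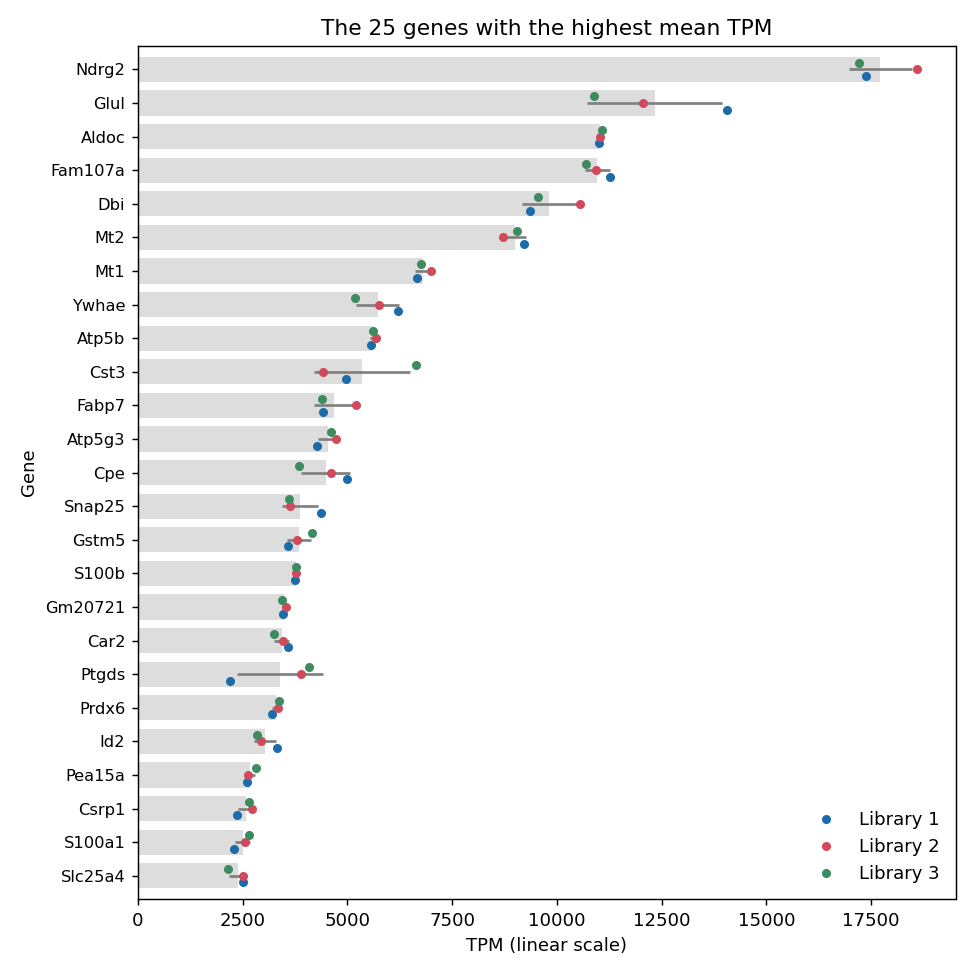
Mean TPM (grey bars, linear scale from 0) with SD over 3 libraries and the value of each library (coloured points) for the 25 genes with the highest mean. Ndrg2 stands apart at the top, most genes show points that lie close together, and Ptgds shows the widest spread relative to its mean.

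Further genes of the first 30 are described here by function. Energy metabolism was represented by the ATP synthase subunits Atp5b (5612 ± 63.9 TPM) and Atp5g3 (4537 ± 233 TPM), the cytochrome oxidase subunit Cox4i1 (2341 ± 187 TPM) and the ADP/ATP carrier Slc25a4 (2381 ± 212 TPM). Lipid handling was represented by the brain fatty acid binding protein Fabp7 at 4669.7 ± 461 TPM, Ptgds at 3391 ± 1031 TPM and Apoe. Redox and detoxification enzymes were the glutathione transferase Gstm5 (3846 ± 283 TPM), the peroxiredoxin Prdx6 (3293 ± 91.1 TPM) and Aldh1a1 (2377 ± 11.9 TPM), which makes retinoic acid. The carbonic anhydrase Car2 had 3426 ± 172 TPM. The 14-3-3 proteins Ywhae (5719.6 ± 512 TPM) and Ywhaz (2350.2 ± 298 TPM), the calcium-binding protein S100a1 (2501 ± 178 TPM), the phosphoprotein Pea15a (2679 ± 114 TPM) and the LIM protein Csrp1 (2579 ± 191 TPM) are signalling or cytoskeletal adaptors. Carboxypeptidase E (Cpe), which matures secreted peptides, had 4477 ± 588 TPM, and Id2, an inhibitor of basic helix-loop-helix factors, 3029.8 ± 255 TPM. Snap25, a component of the neuronal exocytosis machinery, stood 14th with 4362, 3633 and 3596 TPM.

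The gene Gm20721 stood 17th, but 1469 of the 1484 bases of its transcript lie on exons of Gnas, the stimulatory G protein subunit, on the opposite strand. The counts of Gm20721 were 66475, 70456 and 82800, and those of Gnas were 66506, 70470 and 82849. Since the strand of the reads is not given in the sources used here, the reads of both genes cannot be told apart. Exonic bases were shared with another gene in 2598 (17.5%) of detected genes.

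By reads rather than by level per length, long transcripts moved up. The 10 genes with the highest CPM, in which counts are scaled to this total without regard to length, included Ndrg2 (13698 ± 718 CPM), Fam107a, Glul, Aldoc, Slc1a2 (8368 ± 992 CPM), the RNA-binding protein Qk, Ywhae, Atp5b and Cpe. Slc1a2 was 5th by CPM and 35th by TPM, as its transcript has 11595 bases. Qk was 6th by CPM and 37th by TPM, with 2173, 1906 and 1597 TPM.

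Functional classes were then described with gene lists, each by its number of members, how many were detected, and the median level of its members. For comparison, 67.3% of all genes were detected and the median of detected genes was 16.1 TPM.

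The glutamate and glutamine cycle, by which astrocytes recycle the transmitter released by neurons, held 1.90 ± 0.174% of all TPM in 19 genes, of which 18 were detected, with a median of 242 TPM. Behind Glul and Slc1a2, glutamate dehydrogenase Glud1 had 1043 ± 31.9 TPM, the second glial glutamate transporter Slc1a3 had 740.2 ± 91.8 TPM, and the mitochondrial glutamate carrier Slc25a18 had 711 ± 74.9 TPM. The GABA transporter Slc6a11 had 242 TPM, and the GABA transaminase Abat 532 ± 14.7 TPM. The mitochondrial aspartate aminotransferase Got2 was low, at 13.7, 15.1 and 13.9 TPM, beside its cytosolic counterpart Got1 at 340.2, 358 and 322 TPM. However, 62.2% of the 50-base windows of Got2 and none of Got1 matched another annotated gene. Slc38a5, a glutamine transporter, had counts in library 3 only.

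Ion and water transport held 0.845 ± 0.05104% of all TPM in 19 genes, all detected, with a median of 231 TPM. Car2 led this list, with 3426 TPM of a mean sum of 8446 TPM, and also stands among the oligodendrocyte markers below. Atp1b2, an astrocytic subunit of the sodium pump, had 1103 ± 140 TPM. The chloride channel protein Ttyh1 had 842 ± 65.3 TPM, Hepacam, a cell adhesion molecule of perivascular membranes, 492 ± 37.02 TPM and its partner Mlc1 231 TPM. Among 80 potassium channel subunits 64 were detected and 4 reached 100 TPM, namely Kcnk1 (350.5 ± 46.9 TPM), the glial inward rectifiers Kcnj10 (236 ± 21.9 TPM) and Kcnj16 (147 ± 20.4 TPM), and the calcium-activated channel Kcnn2 (101 ± 10.7 TPM).

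Among gap junction proteins, 9 of 10 were detected, but only 2 exceeded 100 TPM. Gjb6 (connexin 30) had 1158, 928 and 997 TPM and Gja1 (connexin 43) had 468, 389 and 444 TPM, so that Gjb6 was the higher in each library. Gjb2 (connexin 26) followed at 42.7 ± 4.53 TPM and Gjc3 (connexin 29) at 23.2 ± 2.58 TPM. The oligodendrocyte connexin Gjb1 had 2.38 ± 0.802 TPM, and the endothelial connexins Gja5 and Gja4 were at or near the limit of detection.

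Lipid carriers and lipid synthesis held 2.60 ± 0.173% of all TPM in 28 genes, all detected, with a median of 152 TPM. The share was 1.59% with the longest annotated transcript of each gene and 1.33% of counts. Dbi, Fabp7, Ptgds and Apoe led this list. The desaturase Scd2 (1168 ± 119 TPM), the acyl-CoA synthetase Acsbg1 (785 ± 39.3 TPM) and the cholesterol synthesis enzyme Hmgcs1 (601 ± 45.5 TPM) were also abundant. The cholesterol exporters Abca1 and Abcg1, at 6.64 and 5.23 TPM, were below the median of detected genes.

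Glycolysis, lactate and glycogen genes held 1.72 ± 0.00378% of all TPM in 29 genes, all detected, with a median of 87.1 TPM. Aldoc alone made up most of this share. The lactate dehydrogenase subunit Ldhb had 1220 ± 50.1 TPM beside 234 TPM for Ldha, and the values of both subunits did not overlap. Genes of glycogen metabolism were represented by Ppp1r3c, which targets a phosphatase to glycogen (1048 ± 68.9 TPM), by Ugp2, which makes UDP-glucose (650.3 ± 47.7 TPM), and by the brain phosphorylase Pygb (368 ± 11.3 TPM). In contrast, the core enzymes Gapdh, Eno1 and Pgam1 had 1.61, 0.332 and 3.32 TPM. Of the windows of Pgam1, 36.9% matched another annotated gene, and Gapdh and Eno1 are taken up further below.

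The nuclear genes of the respiratory chain and ATP synthase formed the largest of these classes by TPM, with 4.31%, 4.53% and 4.59% of all TPM in the 3 libraries. As a share of counts, without regard to length, the mean was 1.88%, below the 2.74% of the glutamate and glutamine cycle. Of 86 members 85 were detected, 60 reached 100 TPM, and their median was 257 TPM. After Atp5b, Atp5g3 and Cox4i1 came Atp5mpl (1817 ± 50.8 TPM) and Atp5a1 (1785 ± 59.3 TPM). In all, 12 members stood among the 100 most abundant mRNAs. Mitochondrial ribosomal proteins were detected in 77 of 78 cases with a median of 74.2 TPM, led by Mrps6 at 410.3 ± 19.9 TPM.

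Antioxidant and glutathione genes held 1.47 ± 0.0508% of all TPM, and all 26 were detected with a median of 204 TPM. Of counts they held 0.933%. The selenoprotein Selenop, a selenium carrier, had 1342 ± 55.5 TPM, Gstm1 had 1034 ± 18.9 TPM, catalase (Cat) had 578 ± 45.8 TPM and the oxidative stress regulator Nfe2l2 had 306, 296 and 303 TPM. The amino acid and one-carbon enzymes, 24 of 24 detected, were led by Psat1 of serine synthesis at 1074 ± 56.3 TPM and Glud1. Phgdh, the first enzyme of serine synthesis, had only 15.2, 19.3 and 18.5 TPM, and 81.5% of the 50-base windows of its transcript matched another annotated gene. In iron and metal handling, all 17 genes were detected, with the ferritin heavy chain Fth1 at 998 ± 55.3 TPM behind Mt2 and Mt1.

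**Figure D3:**
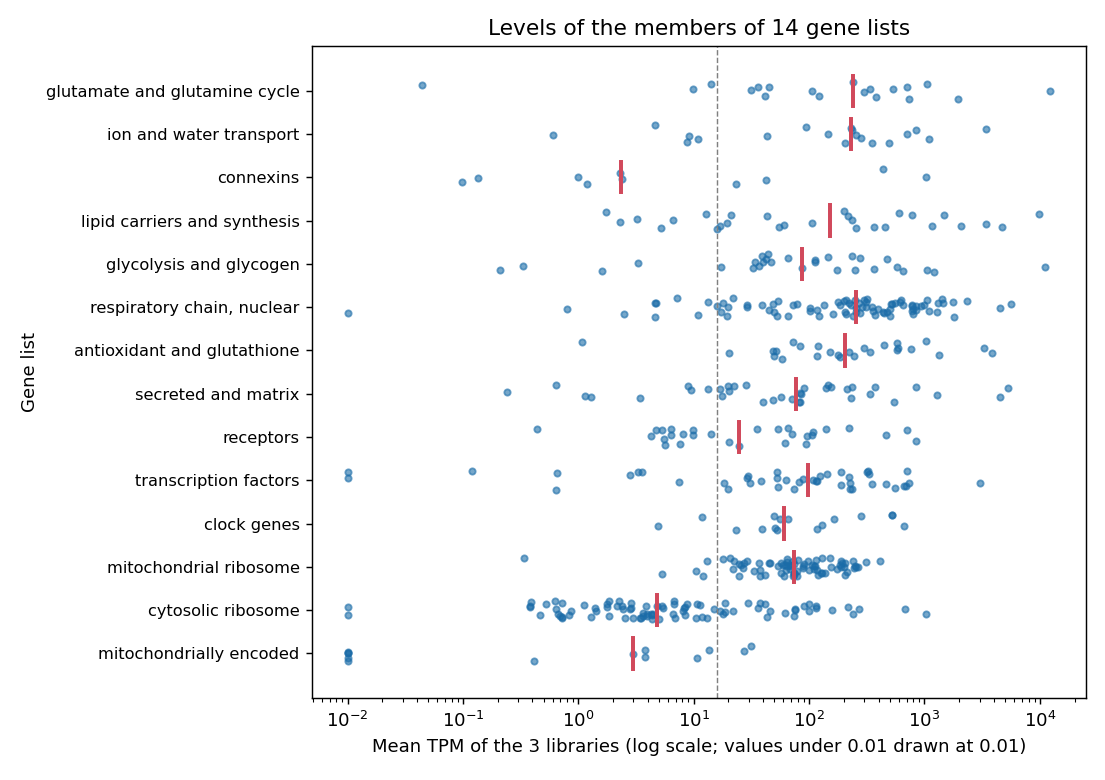
Mean TPM over 3 libraries (log scale) of each member (blue points) of 14 gene lists, with the median of the list (red bar) and the median of detected genes (dashed line). Respiratory chain, glutamate cycle and ion transport members lie mostly to the right of the dashed line, while cytosolic ribosomal proteins and mitochondrially encoded mRNAs lie mostly to its left.

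All 36 secreted and matrix proteins were detected, with a median of 76.5 TPM, led by Cst3, Cpe, Sparcl1 and Sparc (840.1 ± 64.1 TPM). The secretory granule protein Scg3 had 548 ± 61.3 TPM and the serpin Serpine2 370.2 ± 49.2 TPM. Thrombospondins, which astrocytes release during synapse formation in development, were low, with Thbs1 at 0.240 TPM, Thbs2 at 1.29 TPM and Thbs4 at 13.3 ± 0.407 TPM. The collagen chains, which many connective tissue cells secrete, had a median of 0.202 TPM over 44 genes and a highest member, Col9a3, of 7.98 TPM.

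Among 29 receptors, all detected with a median of 24.5 TPM, the sphingosine-1-phosphate receptor S1pr1 was first at 841, 829 and 845 TPM. The neurotensin receptor Ntsr2 (676, 630.3 and 816 TPM) and the prosaposin receptor Gpr37l1 (473, 426 and 506 TPM) followed. The metabotropic glutamate receptor Grm3 had 107 ± 8.99 TPM beside 9.83 TPM for Grm5. The beta-adrenergic receptor Adrb1 had 5.63 TPM.

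Transcription factors were led by Id2, Lhx2 (734 ± 19.6 TPM), the Notch target Hey1 (699 ± 8.5018 TPM) and Id3 (689 ± 52.1 TPM). Of 44 factors 41 were detected, with a median of 98.3 TPM, and Sox9, a regulator of astrocyte identity, had 553 ± 44.6 TPM. Clock genes were all detected (16 of 16, median 60.4 TPM). The clock repressor Nr1d1 had 664 ± 26.1 TPM while its paralog Nr1d2 had 39.3 TPM, and Per1, Per2 and Per3 lay between 11.9 and 52.7 TPM. Clock mRNAs cycle over the day, and the hour of tissue collection was not given in the sources used here.

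Genes with a regional pattern differed in level. All 9 forebrain genes were detected, with a median of 30.8 TPM and with Lhx2, Crym (207 ± 8.93 TPM) and Emx2 (123 ± 20.972 TPM) in front. The lowest were Emx1, Lhx9 and Eomes, at 6.82, 1.51 and 0.897 TPM. Of 15 genes of the hindbrain and cerebellum, 10 were detected and none reached 100 TPM, with a median of 0.652 TPM over all 15. Zic1 was the highest at 27.1, 34.2 and 26.6 TPM, En1 and En2 stood at 0.203 and 0.192 TPM, and Hoxb2, Hoxb3 and Hoxb4 had 0 counts in all libraries. Over the 39 Hox genes, which mark hindbrain and spinal cord, 1 was detected and 33 had no count. Among genes of cerebellar neurons, a list added after values were seen, 8 of 11 were detected with a median of 1.95 TPM. Car8 reached 119 TPM and Pcp2 46.5 TPM, although 865 of the 1606 bases of the Pcp2 transcript lie on exons of Pet100. The 14 Bergmann glia genes were all detected, with a median of 54.9 TPM and with Fabp7, Hopx (781 ± 32.4 TPM) and Slc1a3 in front. Fabp7 and Slc1a3 also stand in other lists above. Gdf10 was among the lower members of this list, with 6.44, 5.84 and 6.60 TPM. Which parts of the brain entered each extraction beyond the whole brain was not measured.

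Genes of reactive astrocytes, which respond to injury, were detected in 28 of 35 cases with a median of 3.05 TPM. Apart from Gfap, S100a10 (257 ± 30.5 TPM) and Vim (159.9 ± 4.22 TPM), none of the members reached 100 TPM, and Lcn2 (0, 1 and 6 counts) and C3 (11, 6 and 4 counts) were close to the limit of detection. Immediate early genes, which rise within minutes of a stimulus or of tissue handling, were detected in 28 of 28 cases with a median of 18.3 TPM, led by Gadd45g at 180.0 ± 11.7 TPM, and Fos had 26.6, 25.5 and 16.4 TPM. Of 18 genes of neural stem cells and proliferation 15 were detected, with a median of 0.797 TPM and Mki67 at 0.399 TPM. Chaperones were led by Cryab (1036 ± 46.1 TPM) and Hsp90ab1 (661 ± 50.5 TPM), proteasome subunits by Psma6 (795 ± 39.7 TPM), and translation factors by Eif4g2 (858 ± 34.4 TPM).

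Several mRNAs that cells translate heavily stood at very low levels, and the uniqueness of their reads was therefore examined. The authors kept reads that aligned to 1 place in the genome. To see how far this could reach, each transcript was cut into windows of 50 bases, the length of the reads, and a window was counted as shared when another annotated gene matched it with at most 2 mismatches. In 9640 (64.8%) of detected genes no window was shared, whereas 287 genes had over 50% to 90% and 108 genes over 90% of their windows shared. The median level was 16.1 TPM in the genes without a shared window. It was 17.3 TPM in 3577 genes with over 0% to 10% and 16.5 TPM in 1256 genes with over 10% to 50% shared. In the groups of over 50% to 90% and of over 90% it was 5.02 and 3.87 TPM.

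The following windows of coding sequence show what such a match looks like, with the bases that differ between gene and copy in capitals, in the orientation of the mRNA. The Gapdh window lies in exon 3 of 7 at chr6:125163387-125163436 (minus strand), and the processed pseudogene Gm6316 at chr12:69921419-69921468 (minus strand). The Rpl10a window lies in exon 2 of 6 at chr17:28328814-28328863 (plus strand), and the processed pseudogene Gm7695 at chr13:63946463-63946512 (minus strand). The mt-Co2 window lies in the mitochondrial genome at chrM:7020-7069, and its nuclear copy Gm13341 at chr2:22587906-22587955 (minus strand). All positions are in GRCm38 (mm10).
Gapdh: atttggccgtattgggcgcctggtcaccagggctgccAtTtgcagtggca
Gm6316: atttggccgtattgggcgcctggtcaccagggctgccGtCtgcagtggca
Rpl10a: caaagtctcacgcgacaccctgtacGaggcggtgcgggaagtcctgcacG
Gm7695: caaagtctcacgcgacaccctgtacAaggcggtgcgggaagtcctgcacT
mt-Co2: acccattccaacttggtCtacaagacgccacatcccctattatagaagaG
Gm13341: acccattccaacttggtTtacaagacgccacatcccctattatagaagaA

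Gapdh, the glycolytic enzyme, had 11, 7 and 38 counts in the 3 libraries, and 90 of the 111 windows of its coding transcript (81.1%) matched another gene, in all 312 genes of which 304 are pseudogenes. Rpl10a, which encodes the very protein that carries the tag, had 8, 7 and 38 counts, with 43 of 56 windows of its coding transcript (76.8%) shared. For Gapdh, Rpl10a and Eno1 the transcript that gave the counts is another one than the coding transcript, and 1.47%, 25.5% and 7.43% of its windows were shared. The glycolytic enzyme Eno1 (0.332 TPM, 77.0% of windows of the coding transcript), the actin Actg1 (0.0369 TPM, 53.6%), the ferritin light chain Ftl1 (2.05 TPM, 93.7%) and the chaperones Hspd1 (1.82 TPM, 65.4%) and Hsp90aa1 (1.79 TPM, 63.4%) combined low levels with shared windows. A shared window did not always go with a low level, since Actb, with 52.1% of windows shared, had 1107 ± 59.5 TPM, and Ldhb, with 59.6%, had 1220 ± 50.1 TPM.

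Of 89 cytosolic ribosomal protein genes 83 were detected, with a median of 4.84 TPM, against 74.2 TPM for their mitochondrial counterparts. Rpl8, with 11.9% of windows shared, had 676 TPM. In the 44 genes with over 50% of windows of the coding transcript shared, the median was 3.47 TPM. In the 37 genes with over 10% to 50% shared it was 8.06 TPM, and in the 6 genes with at most 10% it was 13.7 TPM. The last group also held Rpl3l, a muscle paralog, at 0.391 TPM, so that low sharing with annotated genes did not by itself go with a high level. The coding transcript was not always the one counted. Grouped by the transcript that gave the counts, a grouping added after the values were seen, the medians were 3.96 TPM in 37 genes with over 50%, 6.69 TPM in 45 genes with over 10% to 50% and 8.77 TPM in 7 genes with at most 10% shared. Copies that are not annotated were not searched.

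**Figure D4:**
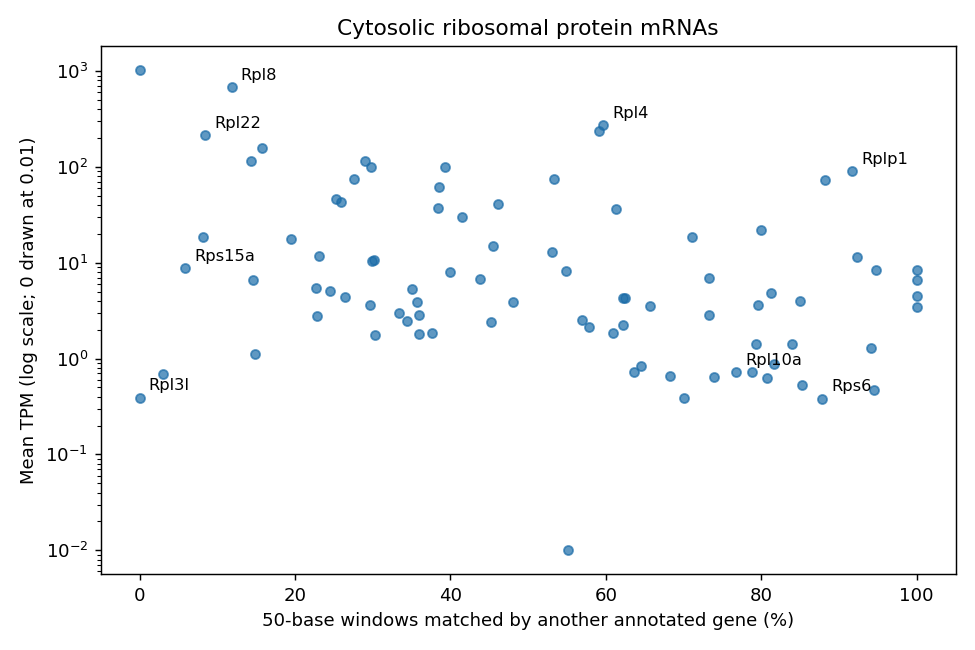
Mean TPM (log scale) of each cytosolic ribosomal protein mRNA against the share of 50-base windows of its coding transcript that another annotated gene matches (%). Rpl8 stands at the upper left, and Rpl10a and Rps6 at the lower right, with wide scatter between them.

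Mitochondrially encoded mRNAs are translated by mitochondrial ribosomes, which do not carry the tag, and they made up 0.00536%, 0.00278% and 0.00412% of counts. Of 13 such mRNAs 7 were detected. mt-Nd1, without a shared window, had 31.9, 22.4 and 26.982 TPM and mt-Cytb, with 22.7% of windows shared, had 44.2, 18.6 and 30.7 TPM. mt-Co2, mt-Co3, mt-Atp6 and mt-Nd4l were listed at 0 counts in all libraries and every window of theirs matched a nuclear copy. The read filter and the absence of the tag cannot be told apart for these 4 genes. mt-Atp8 also had 0 counts, although no window of it was shared. Of 14 nuclear noncoding RNAs on the list, only Snhg11 was among the genes used here, at 8.94 TPM, and the others were not analysed here.

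The γ-protocadherins gave an example of reads shared within a locus. The transcripts of Pcdhgc3, Pcdhgc5, Pcdhgb6 and Pcdhga3 (178 ± 16.3, 149 ± 10.7, 141 ± 9.34 and 141 ± 9.43 TPM) overlap in 2119 bases of exon, so that these values are not separate measurements. Of 1329 olfactory and vomeronasal receptors 6 were detected and 1284 had no count, and the only one above 100 TPM, Olfr287 at 146 TPM, had 64.6% of its windows shared.

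Markers of other cells were examined in the same libraries, since the purification was made from whole brain. In bulk RNA, fewer cells of a type and less RNA per cell cannot be told apart. Among 26 neuron markers, all were detected with a median of 52.7 TPM, and they summed to 6471, 5596 and 5601 TPM. At or above 100 TPM were 11 of them, among which the synaptic vesicle genes Syt1 and Syp had 180 and 172 TPM. With the longest annotated transcript of each gene the median was 28.6 TPM. Snap25 stood far above the second member, the neuronal enolase Eno2 at 277 ± 11.8 TPM, and above Camk2a, the forebrain kinase, at 238, 209 and 207 TPM. The vesicular transporters of glutamate, Slc17a7 (31.2, 19.5 and 27.5 TPM) and Slc17a6 (20.5, 21.4 and 14.9 TPM), and of GABA, Slc32a1 (5.89, 5.41 and 6.58 TPM), were lower. A list of mRNAs of dendrites and synapses had a median of 38.9 TPM over 18 genes, all detected.

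Among 16 oligodendrocyte markers, all were detected with a median of 29.99 TPM and sums of 5283, 5251 and 5026 TPM. Car2 and Cryab, which astrocytes are also known to express, and the myelin enzyme Cnp at 360, 406 and 398 TPM made up most of it. The myelin proteins Mag and Mog were lower, with Mag at 8.91, 6.51 and 9.42 TPM and Mog at 5.47, 6.39 and 6.20 TPM. The markers of precursor cells summed to 600 to 611 TPM, led by Tmem100 and Olig1, while Pdgfra and Cspg4, their defining surface receptors, had 3.26 and 0.465 TPM.

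Markers of vascular and immune cells were lower. The 18 microglia and macrophage markers had a median of 2.2002 TPM and sums of 59.5 to 66.6 TPM. The 19 endothelial markers had a median of 0.841 TPM, and their sum of 244 to 325 TPM came mainly from Bsg, Mfsd2a and Slc2a1. Cldn5, the tight junction protein of brain endothelium, had 1.58, 0.685 and 0.262 TPM, and Ly6c1 had no count. Mural cell markers had a median of 1.09 TPM over 15 genes, and of 13 blood cell markers 3 were detected, with the globin Hbb-bs at 2.58, 4.28 and 6.79 TPM. Hba-a1, Hba-a2, Slc4a1, Ngp and Camp had no count. Ependymal markers had a median of 8.75 TPM and sums of 270, 355 and 305 TPM. Since no library without the tag was used here, the part of RNA from untagged cells in any of these levels was not tested.

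The choroid plexus, the secretory epithelium of the ventricles, gave the largest difference between libraries. Ttr, the thyroxine carrier made by this epithelium, had 68.2, 3284 and 2671 TPM, or 1050, 52219 and 51276 counts. Enpp2 had 54.6, 174 and 165 TPM, the chloride channel Clic6 had 10.04, 50.5 and 45.7 TPM, and Klotho (Kl) had 2.24, 15.2 and 14.2 TPM. All 13 detected members of the 15 choroid plexus markers were lowest in library 1. Fibroblast and meningeal markers were lowest in library 1 for 11 of 14 members and summed to 141, 227 and 229 TPM, with Igf2 at 53.4, 91.5 and 85.3 TPM. Library 1 was also the lowest for 58 of 85 detected respiratory chain genes and 43 of 77 mitochondrial ribosomal protein genes, but for 4 of 26 neuron markers. The share over all genes was not computed. Ptgds, which the meninges and choroid plexus make alongside glia, had 2205, 3891 and 4077 TPM. The choroid plexus had been removed from each brain before extraction according to the methods, and its part in these values was not tested. The astrocyte markers Cst3 and Apoe followed another order, with 4971, 4426 and 6634 TPM and with 1868, 1588 and 2716 TPM, and were highest in library 3.

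**Figure D5:**
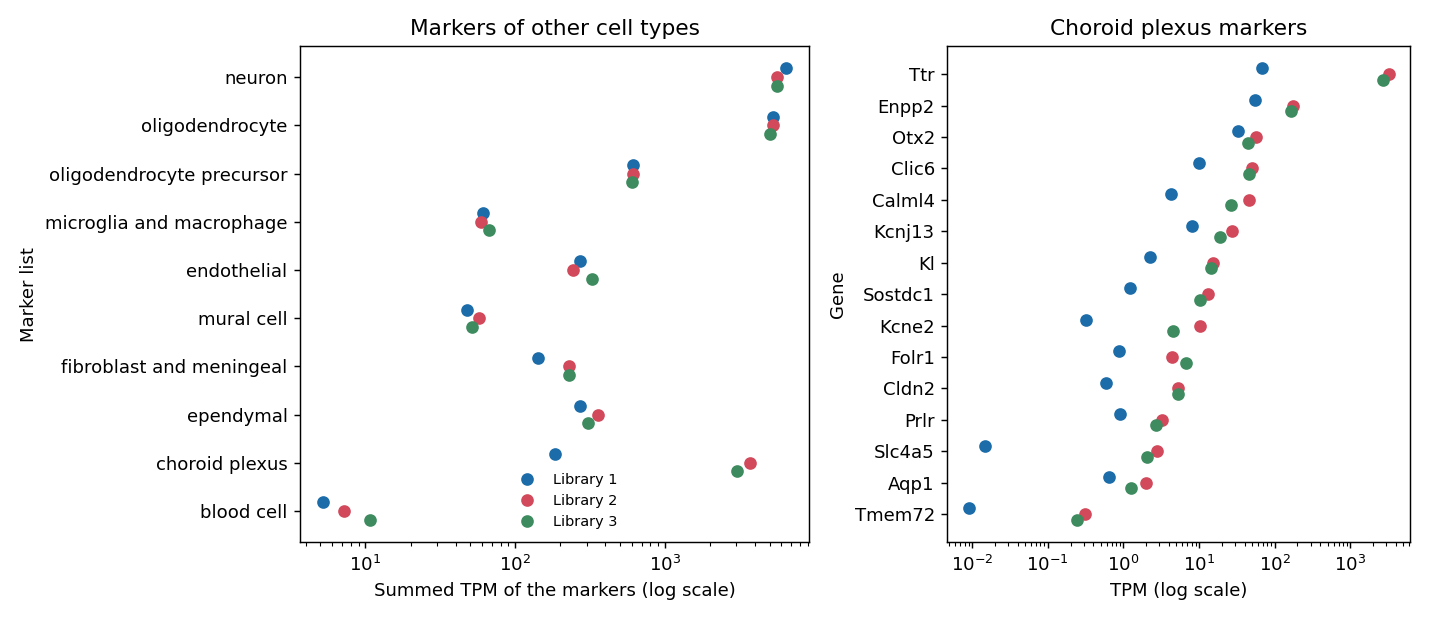
Left, summed TPM (log scale) of the markers of 10 other cell types in each library. Right, TPM (log scale) of each choroid plexus marker in each library. Neuron markers stand at 6471, 5596 and 5601 TPM and choroid plexus markers at 184 TPM in library 1 against 3695 and 3019 TPM in libraries 2 and 3.

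Most genes differed little between replicates. Over the 14871 detected genes, the correlation of log2(CPM + 1) after TMM scaling was 0.994 between libraries 1 and 2, 0.994 between 1 and 3 and 0.996 between 2 and 3, as a description across genes, which are not independent replicates. The median fold difference of a gene was 1.13, 1.14 and 1.11 for these pairs. The biological coefficient of variation, the spread between libraries beyond counting error estimated by edgeR, was 0.114 over all genes with a mean of at least 1 CPM. Its median was 0.188 in genes of 1 to 10 CPM, 0.0938 at 10 to 100 CPM and 0.0769 at 100 to 1000 CPM. Without library 1 the common value was 0.0965, and without library 2 or 3 it was 0.125. In genes with at least 3000 counts, the median log2 difference between libraries 2 and 3 was 0.0813, against 0.0178 from counting error alone. Below 30 counts the same values were 0.644 and 0.377.

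Of 9143 genes with a mean of at least 10 CPM, 16 (0.175%) differed 2-fold or more between the highest and the lowest library after TMM scaling, which corrects for differences in composition. Library 1 was the lowest in 12 of them. This lean was not seen in the 208 genes that differed 1.5-fold or more. Among those, library 1 was the lowest in 76, library 2 in 87 and library 3 in 45. The 10 largest ratios were those of Ttr (48.3), Kl (6.79), Clic6 (5.04), the cell cycle inhibitor Cdkn1c (3.90), Enpp2 (3.19), the phosphohydrolase Hddc3 (2.41), mt-Cytb (2.37), the RNA-binding protein Rbm47 (2.27), Rpl15 (2.24) and the ubiquitin ligase Mylip (2.21). Hddc3, no choroid plexus marker of the list, had 71.0, 171 and 170 TPM. mt-Cytb went the other way, with the highest value in library 1. The remaining 6 of the 16 genes were Spp1, Slc22a6, Crabp2, Nrros, Ext2 and Slc6a20a, chosen after their values were seen. When library 1 was left out, 2 genes differed 2-fold or more, when library 2 was left out 9 did, and when library 3 was left out 14 did. Among the 1000 most abundant genes, the smallest ratios were those of Ak3, a mitochondrial adenylate kinase (1.0006), Pde6d (1.003), Aldoc (1.003), Aldh1a1 (1.004) and Lxn (1.009).

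Detection depended on depth and on the class of gene. A floor of 3 counts stood for 0.0834, 0.0832 and 0.0689 CPM, and at the median transcript length of 2462 bases for 0.0938, 0.0909 and 0.0753 TPM. These limits hold counting error alone, because the cDNA was amplified and several reads may stem from the same molecule. At least 3 counts in all libraries were found for 68.5% of 21330 protein-coding genes, for 40.7% of 415 other noncoding genes and for 28.2% of 347 pseudogenes. Of all genes with at least 3 counts in any library, 91.5% had them in all. No count at all was found for 5037 genes. When each library was reduced in calculation to 1000000 counts, 11680.1 ± 73.6 genes remained with 3 or more, and at 10000000 counts 14453 ± 71.7. From 20000000 to 30000000 counts the number went from 15066 ± 86.1 to 15372 ± 101.

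Abundant mRNAs were shorter than others. The median transcript length was 1918 bases in the first 100 genes and 2057 bases in the first 1000, against 3064 bases in all detected genes, with 5.5, 7 and 8 exons. Only 63 of the first 100 by TPM were among the first 100 by CPM. TPM divides by length, and the length of the first 100 genes by CPM was not examined. In the promoters of RefSeq (GRCm38.p6), of which 77 matched the first 100 genes, the letters TATAAA on either strand in the 250 bases before the start were found in 5.19%, against 6.52% in the 11423 matched promoters of detected genes and 12.97% of 27025 promoters in all. The median GC content of these bases was 58.8% in the first 100 genes and 59.6% in detected genes.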

How the data were processed

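Polysomal RNA (10 ng) was amplified by the authors with the NuGEN Ovation kit, made into TruSeq libraries and sequenced as 50 bp reads. Per the authors' methods and the submitters' processing notes, the Eoulsan pipeline filtered the reads, aligned them with Bowtie (0.12.9) to mm10 (Ensembl 75), removed reads aligned more than once and counted the rest with HTSeq-count (0.5.3). The deposited values are raw counts for 75466 transcripts, without normalization or filters. A read was counted on several transcripts of a gene, so that transcript sums were 2.15 to 2.19 times gene sums. Of these transcripts, 73164 (96.9%) matched GENCODE M21 annotation of the same build, in 22092 genes. Each gene was represented by its transcript of highest CPM summed over all libraries of the series, and TPM were computed from its length.

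Replicates come from separate brains per the methods. Genes were taken as detected with at least 3 counts in every library. Spread was estimated with edgeR 4.0.16 (TMM) in R 4.3.3 and, as an alternative, DESeq2 1.42.0, after a check on data drawn with known dispersion. Shared windows of 50 bases were found every 10 bases within exons with BWA 0.7.19, allowing 2 mismatches against the longest annotated transcript of every other gene, and tables were made with Python 3.11.15, pandas 2.3.3, numpy 2.4.6 and scipy 1.17.1. No groups were compared and no test between groups was made.

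The members, gene lists (50) and the rule for named genes were chosen with earlier results of these data known, and 2 lists were added after values were seen. Genes named are the 30 highest by mean TPM, the 10 highest by mean CPM, the 5 markers given for the condition, the 4 highest and the zero members of a list and any member where a list is discussed, the 10 largest library ratios at a mean of 10 CPM or more, the 5 smallest among the first 1000, and Rpl10a. Some genes that this rule names are not reported here. Gm20721, Gnas, Olfr287 and the genes of the window examples were chosen after their values were seen. Alternatives were other representative transcripts, scalings, filters, thresholds, protein-coding genes only, and each library left out. Levels per uniquely matched position, the removal of overlapping genes and the removal of choroid plexus and meningeal markers were added after the data were seen.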

Additional observations from a re-analysis of the deposited data

Results flagged for a closer look

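Counts on transcripts outside the annotation used were present in all 3 libraries. The 2302 transcripts that did not match the GENCODE M21 annotation held 1.68% of all transcript counts on average, and 1457 of them had at least 3 counts in each library. The first 10 of them held 28.5% of these counts. They carry no gene name here and entered none of the levels above. Groups of 3 libraries are too small for a rule on outlying samples, so the low choroid plexus values of library 1 are given in the report only.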

How the results depend on the processing

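No paired analysis was possible because only 1 group was described and no result came from a test between groups.

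Of the 50 most abundant genes, 49 remained with the representative transcript taken from the whole astrocyte libraries, 46 with the longest transcript, 35 by CPM, 50 with protein-coding genes only, 43 per unique position, 47 without genes that overlap others, and 49 or 50 with any library left out. The number of detected genes stayed between 12261 (more than 50 counts) and 16247 (3 counts in any library). The share of all TPM in the first 100 genes (24.9%) became 24.8% with the representative transcript of the whole astrocyte libraries, 25.05% with the longest transcript, 21.3% by CPM, 25.03% with protein-coding genes only and 26.5% per unique position. The respiratory chain share (4.47%) became 4.19% with the longest transcript, 1.88% by CPM and 5.06% per unique position. The median of neuron markers (52.7 TPM) became 28.6 with the longest transcript, 72.9 by CPM and 47.6 per unique position. The median of the 5 astrocyte markers (1962 TPM) became 8368 by CPM and 1596 per unique position. The share of mitochondrially encoded mRNAs (0.00936% of TPM) was 0.00409% of counts. The replicate spread of 0.114 lay between 0.104 and 0.122 with other scalings, with no filter and with DESeq2, while genes of at least 10 CPM gave 0.0935 and leaving out a library gave 0.0965 to 0.125. The count of 16 variable genes became 409 at a mean of at least 1 CPM, 208 at 1.5 times and 5 at 3 times, and 2 to 14 with a library left out. Choroid plexus markers differed by library and are given for each library in the report. The part of unique alignment in the level of genes with near-identical copies was not tested.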

Other observations

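The 4 Y-linked genes on the list of sex-linked genes were detected in each library, with Ddx3y at 95.6, 96.8 and 85.7 TPM, Eif2s3y at 23.3, 37.2 and 28.9 TPM, Uty at 18.5, 16.8 and 14.2 TPM and Kdm5d at 8.97, 10.2 and 8.003 TPM. Of 54 keratin genes, which epithelia express, 13 were detected and 27 had no count, and Krt10 was the highest at 32.8, 36.8 and 24.0 TPM. Krt18, a keratin of simple epithelia, had 0.375, 5.29 and 4.30 TPM. Of 58 replication-dependent histone genes 25 were detected, with Hist1h2bc at 729 ± 17.0 TPM, Hist1h1c at 343 ± 25.7 TPM and Hist2h2be at 198 ± 22.5 TPM, and 37 had over 50% of their windows shared with another gene. Of 333 solute carriers 242 were detected and 23 reached 100 TPM, and the mitochondrial carriers Slc25a4, Slc25a3 (1217 ± 37.9 TPM), Slc25a18, Slc25a23 (493 ± 23.2 TPM) and Slc25a33 (393 ± 22.5 TPM) were among the first 7. Pseudogenes took 0.0993%, 0.106% and 0.106% of counts, and 14 of them reached 100 TPM. The glucocorticoid-induced leucine zipper gene Tsc22d3 had 1200.5, 1020.3 and 971 TPM, beside 85.2, 73.4 and 86.2 TPM for Fkbp5, another gene that glucocorticoids induce. No explanation was weighed for any of these values.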
